A study of Mus musculus with 10 samples.

Results

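The 10 genes described here supply, move or limit the RNA pieces and nucleosides that reach TLR7 inside the cell, or bring the receptor to its compartment. They were chosen by name and role, in a rule that uses no measured value, and all 10 were found among the 55573 genes of the deposited table. In order of their roles they are the RNA-cutting nucleases Rnaset2a and Rnaset2b, the exonucleases Pld3 and Pld4, the chaperone Unc93b1, the peptide and histidine transporters Slc15a3 and Slc15a4, and the nucleoside transporters Slc29a1, Slc29a2 and Slc29a3.

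RNA came from bone marrow–derived macrophages (BMDMs) of female C57BL/6 wild-type mice, grown with 50 ng/mL MCSF, the growth factor that turns marrow cells into macrophages. Each of the 5 groups had 2 libraries, and every group was exposed for 4 hours. The first group received vehicle and the second 5 μg of polyU, an ssRNA built from uridine and given as a complex with the lipid DOTAP. The third group, PNPi+dG/rG, received 1 μM ulodesine, an inhibitor of purine nucleoside phosphorylase (PNP), together with 5 μM deoxyguanosine (dG) and 5 μM guanosine (rG), and the fourth, PNPi+dG/rG+polyU, received all of these with polyU. The fifth group received 1 ng/mL R848, a small synthetic TLR7 agonist. PNPi, dG and rG were never given apart, so their separate effects cannot be told apart here. The labels name DOTAP only together with polyU, and no group with DOTAP alone. Effects of polyU and of the lipid therefore cannot be told apart either. The labels call the libraries of a group biological replicates but do not say whether they came from separate mice.

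TLR7 is an endosomal receptor with a pocket for guanosine and a second site for short ssRNA, and natural ligands act best when both are filled. RNase T2 enzymes cut RNA in lysosomes, and PLD3 and PLD4 chew single-stranded nucleic acids from the 5′ end, so these enzymes both make and remove ligand. UNC93B1 carries nucleic acid-sensing TLRs from the endoplasmic reticulum to endosomes. SLC15A4 exports histidine and peptides from endolysosomes and anchors TASL, the adaptor that leads to IRF5, while SLC15A3 is its close relative. SLC29A3 lets nucleosides leave lysosomes, SLC29A1 and SLC29A2 pass them across the plasma membrane, and PNP breaks guanosine and deoxyguanosine down to guanine.

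The main pattern was that genes of a family moved by different amounts. With R848, only Slc15a3 and Slc15a4 moved in opposite directions within a family as deposited. With libraries centred on their median, Pld3 (log2 0.18) and Slc29a1 (0.27) also moved against their relatives. After PNPi+dG/rG+polyU and after R848, Slc15a3 rose while the nucleoside transporters Slc29a2 and Slc29a3 fell. In the direct comparison of the groups, Pld4 and Slc15a4 separated these 2 stimuli by at least 2-fold as deposited. Both were higher after PNPi+dG/rG+polyU (log2 1.33 and 1.18, and 0.95 and 0.80 with libraries centred on their median). Pld3 and Slc15a3 were lower there (-0.28 and -0.24, and -0.66 and -0.62 centred), and Slc29a1 only when centred (-0.34). Slc29a3 was higher (0.75, and 0.37 centred), and Unc93b1 only as deposited (0.38, and 0.00 centred). Pld4 and Slc15a4 fell with R848, by at least 2-fold as deposited and by less once centred (-0.77 and -0.47). With PNPi+dG/rG+polyU neither passed the test as deposited but both were higher after centring (0.17 and 0.33). PolyU alone gave small changes, under 2-fold for every tested member, and no member was called after PNPi+dG/rG without polyU.

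Levels are given in CPM, the share of a library's reads on genes that fell on 1 gene, on a scale common to all libraries. The libraries held between 14128122 and 38392587 reads on genes, as worked out from the step between low values, with PNPi+dG/rG deepest and PNPi+dG/rG+polyU shallowest. At these depths 3 reads, taken as the floor, correspond to 0.0781 to 0.212 CPM, a limit that covers counting error only. All 8 macrophage markers examined had a mean of at least 1 CPM, with a summed level of 1.73e+04 to 1.78e+04 CPM in vehicle, 1.52e+04 CPM in PNPi+dG/rG+polyU and 1.59e+04 to 1.64e+04 CPM in R848, and single markers moved apart with R848, Mertk 7.33-fold and Fcgr1 2.09-fold lower and Cd14 6.45-fold higher. Of the 4 T cell markers, Cd3e and Cd3d were at 0 in every library, whereas Lck had 0.561 and 0.73 CPM with vehicle and 1.42 and 1.97 CPM with PNPi+dG/rG+polyU (log2 1.38, adjusted p = 0.0127). Of the 5 fibroblast markers, 3 had a mean of at least 1 CPM. The summed level of the 5 was 132 to 139 CPM with R848, 3.68 to 4.99 CPM with PNPi+dG/rG+polyU and at most 1.02 CPM in the other groups. Lum did not share this, at 0 and 0.0612 CPM with R848 against 0.0561 and 0 with vehicle. The 5 neutrophil markers summed to 21.1 to 23.4 CPM with R848 and 2.92 to 3.48 CPM with vehicle, S100a8 making up most of the level in R848, while S100a9 went the other way, from 1.18 and 1.46 CPM with vehicle to 0.0531 and 0 with R848, and Ly6g was at 0 in every library. The 4 endothelial markers summed to 240 to 246 CPM with vehicle and 64.5 to 69.8 CPM with R848, through lower Kdr and Vwf, whereas Pecam1 was higher, at 1.06 and 1.07 CPM against 0.337 and 0.0562, and Cdh5 did not pass the test (adjusted p = 0.0669). The part of these markers in the results below was not tested, and in bulk RNA fewer cells of a type and less RNA per cell cannot be told apart.

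Differences are log2 differences between group means of log2 CPM, tested with limma in 1 model of all libraries over the 11978 genes that reached 1 CPM in at least 2 libraries, and a gene was called at a Benjamini-Hochberg adjusted p under 0.05. Rnaset2b did not reach this filter, and Rnaset2a reached it only through R848 and 1 library of PNPi+dG/rG+polyU, so 9 of the 10 members were tested. As a difference in Rnaset2a was fixed by how it passed the filter, it is left out of the counts of members below, which cover the other 8. The middle of the whole table moved too. Over all tested genes, the median log2 difference from vehicle was -0.22 in PNPi+dG/rG+polyU libraries, -0.50 in R848 libraries and 0.02 in those of polyU and of PNPi+dG/rG. Where centring, which sets the median log2 level of tested genes equal in all libraries, turned a member's direction or changed its call, the centred value is given beside it.

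Against vehicle, polyU had 5 members higher (Pld4, Unc93b1, Slc15a3, Slc15a4 and Slc29a1) and 2 lower (Pld3 and Slc29a3), beside 20.6% of all tested genes higher and 18.7% lower. None of the 8 was called and at least 2-fold different, compared with 3.99% of all genes. With centring, 3 members were higher and 2 lower, as Slc15a3 and Slc29a1 were no longer called, against 17.2% and 22.8% of all genes. PNPi+dG/rG gave 0 members higher and 0 lower by limma, where 0.409% of all genes were higher, 0.392% lower and 0.0751% called and at least 2-fold different. At an unadjusted p under 0.05, 2 members differed, Pld4 and Slc29a3, beside 8.98% of all genes.

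PNPi+dG/rG+polyU had 2 members higher (Unc93b1 and Slc15a3) and 4 lower (Pld3, Slc29a1, Slc29a2 and Slc29a3), where 22.2% of all genes were higher and 46.7% lower. Of these members 3 were at least 2-fold different, namely Slc15a3, Slc29a2 and Slc29a3, against 22.4% of all genes. With centring the split became 4 higher and 3 lower, against 33.2% and 33.2% of all genes. R848 had 1 member higher (Slc15a3) and 6 lower, at a background of 19.2% and 62.9%. In that comparison 5 members passed 2-fold, adding Pld4 and Slc15a4 to the previous 3, where 39.2% of all genes did. With centring, 4 members were higher and 4 lower after R848, against 43% and 34.6% of all genes. These counts over 8 members are a description, and nothing particular to the set is read from them.

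**Figure D1:**
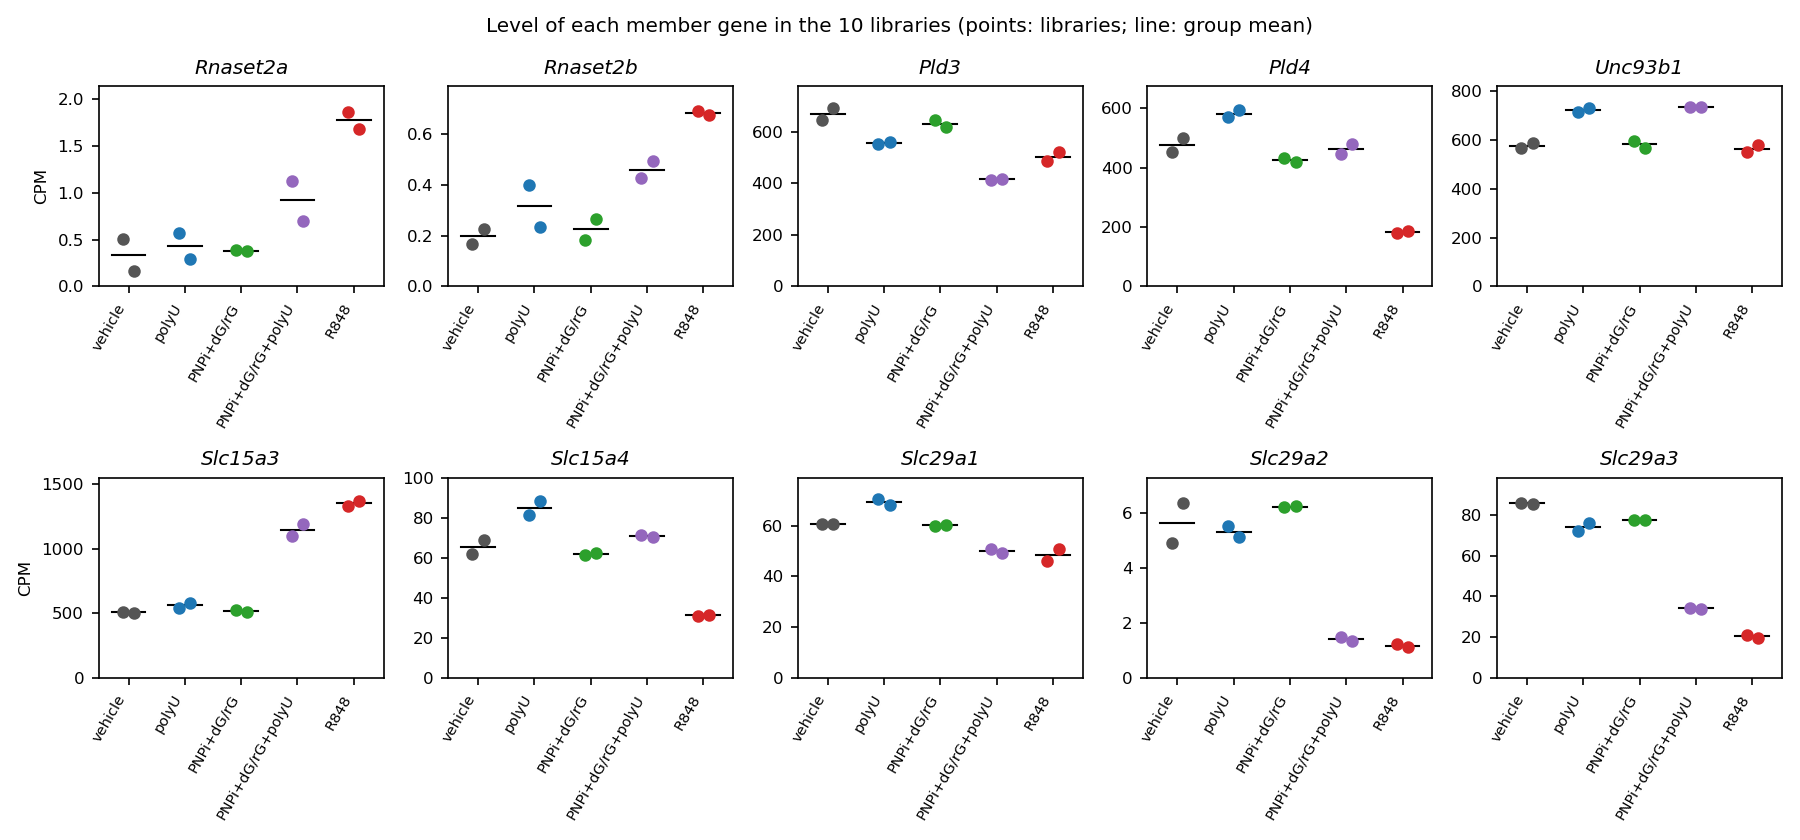
Level of each of the 10 genes in CPM (vertical axes, from 0, a different scale for each gene) in the 2 libraries of each of the 5 groups. Points are libraries and lines are group means. Slc15a3 is high in the 4 libraries of PNPi+dG/rG+polyU and R848, Slc29a2 and Slc29a3 are low in the same 4, and Pld4 and Slc15a4 are low in R848 only.

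Rnaset2a (chromosome 17, 8115445 to 8148097, minus strand, GRCm38) and Rnaset2b (chromosome 17, 6970634 to 7011299, plus strand) are the 2 mouse copies of the gene for RNase T2. Their sequences matter here because they decide what a 50 bp read can tell. In the GENCODE M21 annotation the coding parts of their first transcripts, 777 bases each, had 0 mismatches, so no read within them can be assigned to 1 copy by its sequence. The first 60 coding bases, at chr17:8147635-8147694 for Rnaset2a and chr17:6978998-6979057 for Rnaset2b, are shown in coding direction; no letter is in capitals since none differs.
Rnaset2a: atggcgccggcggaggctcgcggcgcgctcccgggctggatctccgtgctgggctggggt
Rnaset2b: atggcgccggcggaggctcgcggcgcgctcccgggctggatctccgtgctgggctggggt
Over the whole transcripts, 1793 and 1783 bases long, there were 7 mismatches and 10 gap bases, all outside the coding part. Across all annotated transcripts, 78.9% of the 50-base words of Rnaset2a and 57.2% of those of Rnaset2b also occurred in another gene, mostly the other copy. The rule that the counting program used for reads matching 2 places is not given in the sources used here, so the low values of both rows are uncertain as levels of RNase T2 mRNA.

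As deposited, Rnaset2a had 0.505 and 0.169 CPM with vehicle, 0.568 and 0.291 with polyU, 0.391 and 0.374 with PNPi+dG/rG, 1.13 and 0.703 in PNPi+dG/rG+polyU libraries, and 1.86 and 1.68 in R848 libraries. Both R848 libraries lay above all others, and both PNPi+dG/rG+polyU libraries above the remaining 6. These levels stood for few reads, 9 and 3 in vehicle and 35 and 55 in R848. The log2 difference from vehicle was 2.60 with R848 (95% interval 1.37 to 3.83, adjusted p = 6.68e-04, limma) and 1.61 with PNPi+dG/rG+polyU (0.38 to 2.85, adjusted p = 0.0218). The second call rested on single libraries, being 0.82 (adjusted p = 0.228) without vehicle replicate 2 and 1.27 (adjusted p = 0.136) without PNPi+dG/rG+polyU replicate 1. Because the filter admitted Rnaset2a through the groups in which it is high, a difference was to be found, and these values are a description. Rnaset2b had 0.168 and 0.225 CPM with vehicle, 0.398 and 0.232 with polyU, 0.182 and 0.267 with PNPi+dG/rG, 0.425 and 0.492 in PNPi+dG/rG+polyU libraries, and 0.69 and 0.674 in R848 libraries. Its libraries stood in the same rank of groups, with R848 and PNPi+dG/rG+polyU above the others, and it had no test. Summing both copies, which removes the choice between them but not reads left out for matching both, gave 12 and 7 reads in vehicle and 48 and 77 in R848, with log2 differences of 2.25 for R848 (adjusted p = 1.23e-04) and 1.41 for PNPi+dG/rG+polyU (adjusted p = 0.00718). The sum too reached 1 CPM only in R848 and PNPi+dG/rG+polyU libraries. It thus passed the filter through the groups in which it is high, and its values are also a description.

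**Figure D2:**
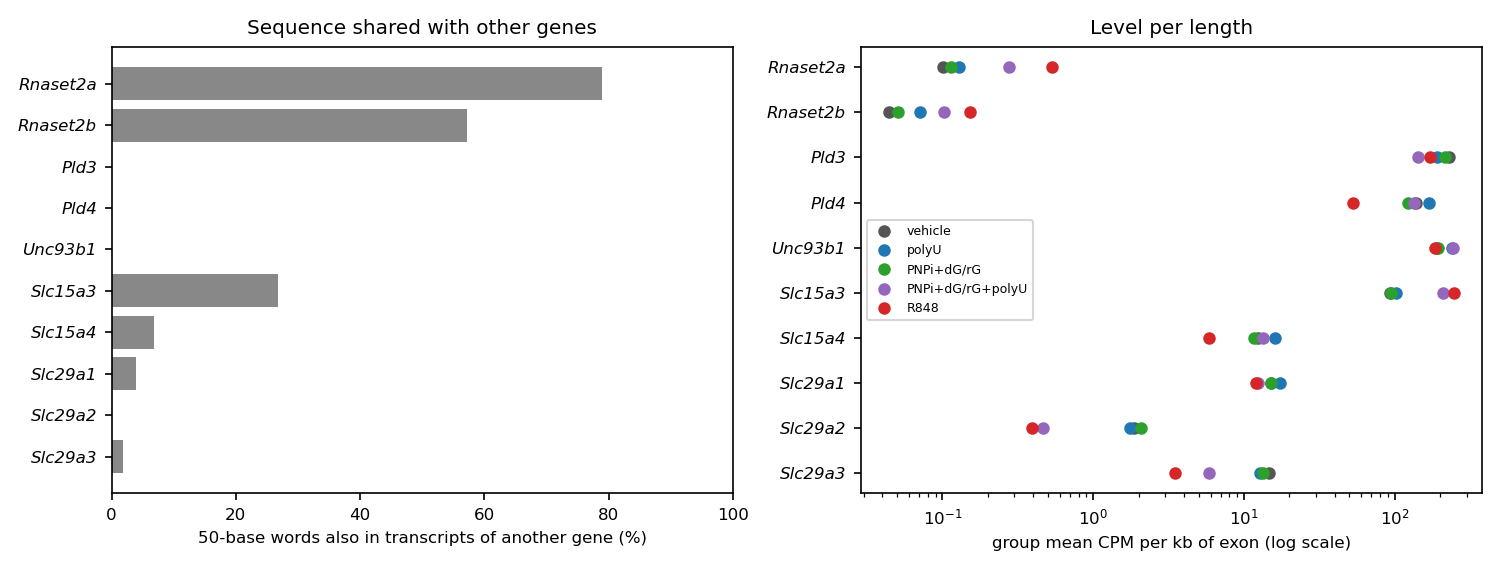
Left, percent of the 50-base words in the transcripts of each gene that also occur in transcripts of another gene in GENCODE M21; right, group mean level in CPM per kb of exon on a log axis, 1 point per group. Rnaset2a (78.9%) and Rnaset2b (57.2%) share the most and have the lowest levels per length, while Pld3, Pld4, Unc93b1 and Slc29a2 share 0%.

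Per kb of exon, Pld3 (228), Unc93b1 (190), Pld4 (138) and Slc15a3 (92.4) were the highest members in vehicle, and Slc29a1 (15.1), Slc29a3 (14.7) and Slc15a4 (12.3) lay below them, in CPM per kb. Slc29a2 had 1.86, Rnaset2a 0.101 and Rnaset2b 0.0441 CPM per kb. With R848, Slc15a3 was the highest member at 246 CPM per kb. In these macrophages the exonuclease genes thus had far more reads per length than the RNase T2 rows, with the limit on the latter just described.

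Pld3 (chromosome 7, 27532000 to 27553218, minus strand) and Pld4 (chromosome 12, 112760655 to 112768990, plus strand) encode the endolysosomal 5′ exonucleases. Pld3 had 643.2 and 692 CPM with vehicle, 551.7 and 560.8 with polyU, 645.5 and 616.6 with PNPi+dG/rG, 411.9 and 417.8 in PNPi+dG/rG+polyU libraries, and 485.9 and 519.1 in R848 libraries. The groups other than vehicle and PNPi+dG/rG did not overlap each other or these 2, and PNPi+dG/rG+polyU was lowest. The log2 difference from vehicle was -0.69 with PNPi+dG/rG+polyU (95% interval -0.78 to -0.59, adjusted p = 1.64e-09), -0.41 with R848 (-0.51 to -0.31, adjusted p = 4.99e-07) and -0.26 with polyU (-0.36 to -0.17, adjusted p = 2.77e-04). After centring, the fall with PNPi+dG/rG+polyU was -0.47, but the difference with R848 turned to 0.18 (adjusted p = 0.00131), so the direction of Pld3 under R848 depended on the scaling.

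Pld4 had 453.6 and 499.3 CPM with vehicle, 569 and 592.7 with polyU, 431.9 and 417.5 with PNPi+dG/rG, 447.1 and 479.1 in PNPi+dG/rG+polyU libraries, and 181.2 and 187.3 in R848 libraries. R848 was far below every other group, polyU above every other group, and PNPi+dG/rG+polyU overlapped vehicle. Pld4 fell 2.58-fold with R848 (log2 difference -1.37, 95% interval -1.48 to -1.26, adjusted p = 5.42e-13) and still by 0.77 on the log2 scale once centred. PolyU raised it by 0.29 (0.18 to 0.39, adjusted p = 3.16e-04). With PNPi+dG/rG+polyU the difference was -0.04 (-0.15 to 0.07, adjusted p = 0.493), which became 0.17 (adjusted p = 0.00781) after centring. Directly compared, Pld4 was 2.51-fold higher after PNPi+dG/rG+polyU relative to R848 (log2 1.33, 1.22 to 1.44, adjusted p = 4.11e-12) and Pld3 was lower (-0.28, -0.37 to -0.18, adjusted p = 5.93e-05). After centring these differences were 0.95 for Pld4 and -0.66 for Pld3. The ratio of Pld3 to Pld4 within a library, which no scaling between libraries can alter, was 1.39 to 1.42 in vehicle, 0.946 to 0.97 in polyU, 0.872 to 0.921 in PNPi+dG/rG+polyU and 2.68 to 2.77 in R848 libraries.

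Unc93b1 (chromosome 19, 3935186 to 3949340, plus strand), the TLR chaperone, had 563.8 and 587.6 CPM with vehicle, 711.7 and 728 with polyU, 595.1 and 566.3 with PNPi+dG/rG, 735.2 and 733 in PNPi+dG/rG+polyU libraries, and 547.8 and 577.3 in R848 libraries. The 4 libraries that received polyU were above the 6 that did not. The log2 difference from vehicle was 0.32 for polyU (95% interval 0.24 to 0.41, adjusted p = 1.51e-05), reached 0.35 in the PNPi+dG/rG+polyU group (0.26 to 0.44, adjusted p = 1.52e-06), and PNPi+dG/rG+polyU differed from polyU by 0.03 (-0.06 to 0.12, adjusted p = 0.562) as deposited and by 0.28 (adjusted p = 2.14e-05) after centring. With R848 it was -0.03 (-0.12 to 0.05, adjusted p = 0.455) as deposited and 0.56 (adjusted p = 3.04e-09) after centring, and the difference of 0.38 between PNPi+dG/rG+polyU and R848 (adjusted p = 6.11e-07) became 0.00 (adjusted p = 0.977).

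Of the receptors that Unc93b1 carries, Tlr7, Tlr8 and Tlr9 had other orders of groups. Tlr3 shared the order of Unc93b1 by group mean. It was highest in PNPi+dG/rG+polyU (46.9 CPM), next in polyU (38.7 CPM) and lowest in R848 (18.4 CPM). Tlr7 had 166 and 142 CPM with vehicle, 147.7 and 142.1 with polyU, 113.2 and 122.8 with PNPi+dG/rG, 152.3 and 166.4 in PNPi+dG/rG+polyU libraries, and 205.2 and 213.7 in R848 libraries. PNPi+dG/rG lay below and R848 above all other libraries. Tlr7 was lower by log2 -0.38 with PNPi+dG/rG (adjusted p = 0.0257) and higher by 0.45 with R848 (adjusted p = 3.97e-05). Tlr8, a relative of Tlr7, rose by 1.05 with PNPi+dG/rG+polyU (adjusted p = 6.11e-10) and 1.25 with R848 (adjusted p = 3.61e-11), while Tlr9, the DNA receptor, fell by 0.47 (adjusted p = 0.00162) and fell by 2.15 (adjusted p = 4.10e-11). The ratio of Unc93b1 to Tlr7 within a library was 2.67 to 2.7 with R848 and between 3.4 and 5.26 in the other groups.

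Slc15a3 (chromosome 19, 10839727 to 10859362, plus strand) rose most among the 8 members that had at least 1 CPM in every library. It had 510.9 and 503.8 CPM with vehicle, 542.3 and 582.9 with polyU, 523.8 and 512 with PNPi+dG/rG, 1102 and 1189 in PNPi+dG/rG+polyU libraries, and 1334.9 and 1367.4 in R848 libraries. The 4 libraries of the last 2 groups stood well above the other 6, and R848 above PNPi+dG/rG+polyU. The rise was 2.66-fold with R848 (log2 1.41, 95% interval 1.32 to 1.51, adjusted p = 7.04e-14) and 2.26-fold with PNPi+dG/rG+polyU (1.17, 1.08 to 1.27, adjusted p = 1.50e-12). PNPi+dG/rG+polyU was lower than R848 by log2 -0.24 (adjusted p = 1.87e-04), and by -0.62 after centring. With polyU alone the difference of Slc15a3 from vehicle was 0.15 (0.05 to 0.24, adjusted p = 0.015). This call was lost after centring (0.10, adjusted p = 0.0906), with plain eBayes (adjusted p = 0.0929) and without vehicle replicate 2 or polyU replicate 2. Exons of Slc15a3 overlap Tmem132a on the opposite strand over 1541 bases, 28.1% of its exon length, and the strand setting of the counting is not given in the sources used here. Tmem132a itself stayed between 10.9 and 15.6 CPM in the 10 libraries. Slc15a4 and Slc29a1 have shorter overlaps of this kind, with Gm43474 over 8.04% and Gm17080 over 6.86% of their exon length, and neither of those genes passed 0.465 CPM in any library.

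Slc15a4 (chromosome 5, 127595664 to 127632897, minus strand), the endolysosomal histidine transporter, had 61.9 and 69.1 CPM with vehicle, 81.5 and 88.3 with polyU, 61.5 and 62.4 with PNPi+dG/rG, 71.6 and 70.3 in PNPi+dG/rG+polyU libraries, and 31.2 and 31.4 in R848 libraries. R848 was lowest by a wide margin and polyU highest. It fell 2.09-fold with R848 (log2 -1.06, 95% interval -1.20 to -0.93, adjusted p = 3.01e-10), and the centred value was -0.47 (adjusted p = 8.85e-06). PolyU raised it by 0.38 (0.24 to 0.51, adjusted p = 2.62e-04). With PNPi+dG/rG+polyU the difference from vehicle was 0.12 (-0.02 to 0.25, adjusted p = 0.12), which passed the threshold after centring (0.33, adjusted p = 4.11e-04) and without vehicle replicate 2 (0.20, adjusted p = 0.027). Slc15a4 was higher after PNPi+dG/rG+polyU relative to R848 (log2 1.18, 1.04 to 1.32, adjusted p = 2.53e-10). The gene for its partner TASL, 5430427O19Rik, had 19.4 and 17.8 CPM with vehicle, 53.4 and 55 in PNPi+dG/rG+polyU libraries and 21.9 and 24.6 with R848, and Irf5 had 273.4 and 303.3, 261.3 and 234.8, and 68.2 and 70.7 CPM in the same groups. Like Slc15a4, both were higher after PNPi+dG/rG+polyU relative to R848, by log2 1.23 and 1.83, where 53.9% of all genes were higher. Against vehicle, 5430427O19Rik was higher with R848 (log2 0.32, adjusted p = 0.00249, limma), unlike Slc15a4. Irf5 was lower there (-2.05, adjusted p = 2.29e-13).

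The ratio of Slc15a3 to Slc15a4 within a library was 7.29 to 8.25 in vehicle, 6.6 to 6.65 with polyU, 8.2 to 8.52 with PNPi+dG/rG, 15.4 to 16.9 with PNPi+dG/rG+polyU and 42.8 to 43.5 with R848. It is a ratio of CPM, not per length, so only its shift between libraries is read. The groups with polyU alone, PNPi+dG/rG+polyU and R848 each lay apart from vehicle.

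**Figure D3:**
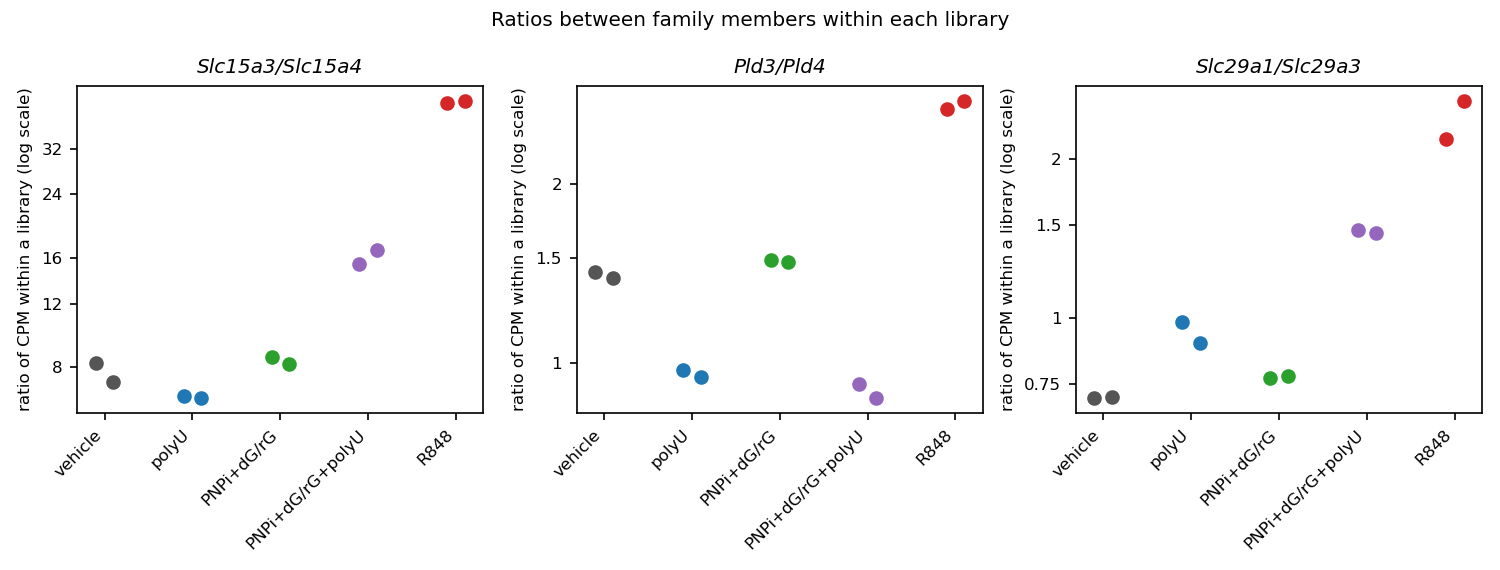
Ratio of CPM between 2 genes of a family within each library (vertical axes, log scale), for the 5 groups, 1 point per library. Slc15a3/Slc15a4 reaches 42.8 to 43.5 in R848 against 7.29 to 8.25 in vehicle, Pld3/Pld4 falls below 1 with polyU and PNPi+dG/rG+polyU, and Slc29a1/Slc29a3 is 2.18 to 2.58 in R848 against about 0.705 in vehicle.

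Of the nucleoside transporters, Slc29a2 and Slc29a3 fell with R848 as well as PNPi+dG/rG+polyU, and Slc29a1 moved less. Slc29a3 (chromosome 10, 60712072 to 60752794, minus strand), the lysosomal carrier, had 86.1 and 85.6 CPM with vehicle, 71.9 and 76 with polyU, 77.7 and 77.6 with PNPi+dG/rG, 34.5 and 33.9 in PNPi+dG/rG+polyU libraries, and 21.1 and 19.6 in R848 libraries. No group overlapped another, and the order ran from vehicle down to R848. The fall was 4.22-fold with R848 (log2 -2.08, 95% interval -2.21 to -1.95, adjusted p = 3.10e-14), 2.51-fold with PNPi+dG/rG+polyU (-1.33, -1.46 to -1.20, adjusted p = 1.76e-11) and 1.16-fold with polyU (-0.22, -0.35 to -0.09, adjusted p = 0.0107). Once centred, the log2 differences of Slc29a3 were -1.48 with R848, -1.12 with PNPi+dG/rG+polyU and -0.26 with polyU. The call with polyU was lost without vehicle replicate 1 (-0.21) or without polyU replicate 1 (-0.18). In that order PNPi+dG/rG and its neighbours vehicle and polyU did not differ beyond the test's threshold, whereas PNPi+dG/rG+polyU was higher than R848 by 0.75 (0.62 to 0.88, adjusted p = 2.87e-08).

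Slc29a2 (chromosome 19, 5023860 to 5031972, plus strand), a plasma membrane carrier, had 4.88 and 6.35 CPM with vehicle, 5.51 and 5.11 with polyU, 6.2 and 6.23 with PNPi+dG/rG, 1.49 and 1.34 in PNPi+dG/rG+polyU libraries, and 1.22 and 1.13 in R848 libraries. The libraries of polyU and PNPi+dG/rG lay within the range of vehicle, and the other 4 were all lower. It fell 4.73-fold with R848 (log2 -2.24, 95% interval -2.68 to -1.81, adjusted p = 4.75e-08) and 3.95-fold with PNPi+dG/rG+polyU (-1.98, -2.42 to -1.55, adjusted p = 3.58e-07). Centred, these log2 differences were -1.65 with R848 and -1.77 with PNPi+dG/rG+polyU. The 2 stimuli differed by 0.26 (-0.17 to 0.70, adjusted p = 0.264), which centring turned to -0.12 (adjusted p = 0.615).

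Slc29a1 (chromosome 17, 45585200 to 45599606, minus strand), the other plasma membrane carrier, had 60.7 and 60.5 CPM with vehicle, 70.5 and 68 with polyU, 59.8 and 60.3 with PNPi+dG/rG, 50.6 and 49.2 in PNPi+dG/rG+polyU libraries, and 46 and 50.7 in R848 libraries. PolyU was highest, and PNPi+dG/rG+polyU and R848 overlapped each other below vehicle. The log2 difference from vehicle was 0.19 with polyU (95% interval 0.06 to 0.32, adjusted p = 0.0199), -0.28 with PNPi+dG/rG+polyU (-0.41 to -0.15, adjusted p = 7.55e-04) and -0.33 with R848 (-0.46 to -0.20, adjusted p = 1.31e-04). None of these calls stood firm under centring, which gave 0.15 (adjusted p = 0.0507), -0.07 (adjusted p = 0.302) and 0.27 (adjusted p = 5.67e-04), the last in the opposite direction. The rise with polyU was also not called with no filter on low values (adjusted p = 0.0525), or without vehicle replicate 1, vehicle replicate 2 or polyU replicate 1. The ratio of Slc29a1 to Slc29a3 within a library rose from 0.705 and 0.706 in vehicle to 1.45 and 1.47 for PNPi+dG/rG+polyU and 2.18 and 2.58 for R848.

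**Figure D4:**
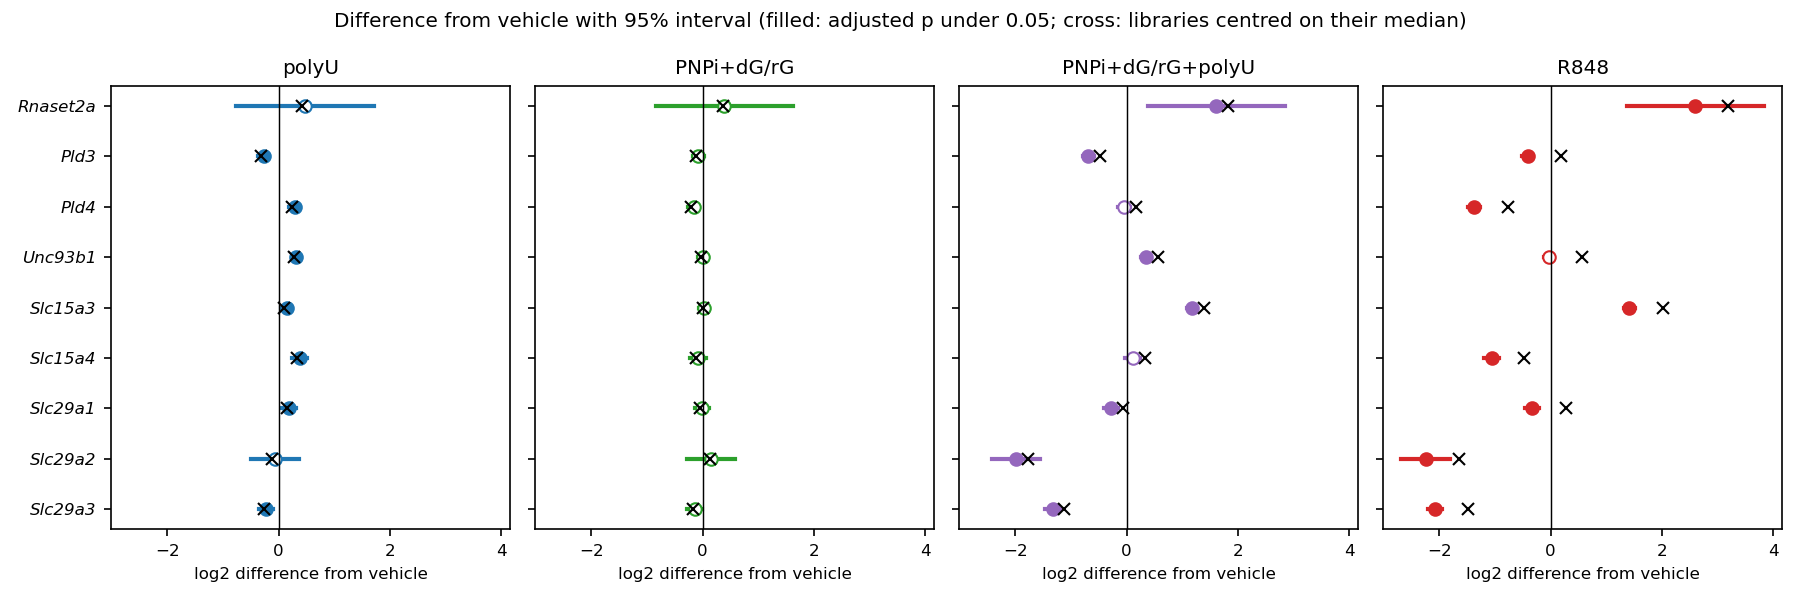
Log2 difference from vehicle (horizontal axis) for the 9 tested genes and the 4 treated groups, with 95% intervals. Filled points have an adjusted p under 0.05, open points do not, and crosses give the value after each library was centred on its median. For R848 the crosses of Pld3, Slc29a1 and Unc93b1 lie on the other side of 0 from their points, while Slc15a3, Slc29a2, Slc29a3, Pld4 and Slc15a4 stay on the same side.

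Promoter sequence is shown for Slc29a2 and Slc29a3, the pair that fell at least 2-fold with both stimuli, and for Pld3, which held a motif that the others lacked. Slc29a1, not shown, also held a motif that the others lacked. Of the 10 members, 8 had sequence in the RefSeq table of GRCm38 promoters, in 16 windows of 250 bases before and 50 after a start site, and Unc93b1 and Slc15a3 had none. Both strands were searched for the ISRE core GAAANNGAAA, bound by interferon-activated factors, found in 3.44% of all 32851 windows; the CLEAR element TCACGTGA of lysosomal genes (0.974%); the E-box CACGTG, which lies within it (7.15%); the NF-κB site GGGANTTTCC (0.411%); and the macrophage PU.1 core AGGAAG (35.4%). The stretches below lie upstream of all annotated transcripts of their gene, are written in the direction of transcription, and carry the matches in capitals.
Slc29a2, plus strand, chr19:5023756-5023859: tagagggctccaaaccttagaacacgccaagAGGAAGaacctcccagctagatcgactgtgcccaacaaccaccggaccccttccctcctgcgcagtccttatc
Slc29a3, minus strand, chr10:60752795-60753032: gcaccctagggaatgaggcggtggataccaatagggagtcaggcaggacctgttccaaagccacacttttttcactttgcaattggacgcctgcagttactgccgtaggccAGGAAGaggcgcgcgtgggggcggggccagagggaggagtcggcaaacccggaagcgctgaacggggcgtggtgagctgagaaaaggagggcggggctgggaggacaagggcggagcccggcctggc
Pld3, minus strand, chr7:27553219-27553468: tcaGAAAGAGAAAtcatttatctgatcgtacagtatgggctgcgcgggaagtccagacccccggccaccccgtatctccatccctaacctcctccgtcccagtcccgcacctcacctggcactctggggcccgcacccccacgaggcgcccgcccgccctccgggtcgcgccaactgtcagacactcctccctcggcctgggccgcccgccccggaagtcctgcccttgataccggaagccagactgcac
Slc29a2 and Slc29a3 each held 1 AGGAAG match, starting 219 and 139 bases before the RefSeq start site. The same letters occurred in 8 of the 16 windows, those of Pld4, Rnaset2a, Rnaset2b and 3 of Slc29a1 among them. Pld3 held the only ISRE core among the 16 windows, 247 bases before its start, a motif found in 3.44% of all windows. Any link of a motif to the level of a gene was not tested. None of the windows held the CLEAR element or the NF-κB letters, and 1 window of Slc29a1 held an E-box. These are matches of letters in a short window, not measured binding.

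Adding PNPi+dG/rG to polyU asks what ulodesine and the guanosine nucleosides do together once ssRNA is present. Against polyU, PNPi+dG/rG+polyU had 1 member higher, Slc15a3 (log2 1.03, 95% interval 0.93 to 1.12, adjusted p = 1.56e-11), and 6 lower, where 15.8% of all genes were higher and 47.5% lower. Slc29a2 was 3.77-fold lower (-1.91, adjusted p = 8.09e-07) and Slc29a3 2.16-fold lower (-1.11, adjusted p = 3.06e-10), and with Slc15a3 they made the 3 members past 2-fold, against 15.5% of all genes. The falls of Slc29a1 (-0.47), Pld3 (-0.42), Pld4 (-0.33) and Slc15a4 (-0.26) were smaller, and those of Pld4 and Slc15a4 were no longer called after centring (-0.07 and 0.00). With centring the split was 2 higher, Unc93b1 (0.28) joining Slc15a3, and 4 lower, against 30.1% and 25.3% of all genes.

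The interaction, which is how far the change made by PNPi+dG/rG differed when polyU was also present, was called for 5 members, 1 higher and 4 lower, beside 11.8% and 38.9% of all genes, and for 1 member past 2-fold, Slc29a2, beside 13.4%. It was 1.00 for Slc15a3 (95% interval 0.86 to 1.13, adjusted p = 3.72e-09), -2.07 for Slc29a2 (-2.69 to -1.46, adjusted p = 2.75e-05) and -0.97 for Slc29a3 (-1.15 to -0.78, adjusted p = 2.27e-07). These 3 kept their direction and call after centring, at 1.28, -1.78 and -0.68. For Slc29a1 (-0.46, adjusted p = 4.16e-04) and Pld3 (-0.34, adjusted p = 4.19e-04) the interaction was lost with centring (-0.17 and -0.06), and for Unc93b1 one appeared (0.30, adjusted p = 5.01e-04). Those of Pld4 (-0.16, adjusted p = 0.0693) and Slc15a4 (-0.18, adjusted p = 0.111) did not pass, and turned to 0.12 and 0.11 after centring, again without passing. With centring 24.1% of all genes were higher and 17% lower. The deepest and the shallowest libraries belong to the groups that enter this term.

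Against R848, PNPi+dG/rG+polyU had 4 members higher (Pld4, Unc93b1, Slc15a4 and Slc29a3) and 2 lower (Pld3 and Slc15a3), at a background of 53.9% and 16.9%, and 2 members past 2-fold, Pld4 and Slc15a4, at a background of 20.7%. With centring, 3 were higher and 3 lower, against 28.4% and 37.5% of all genes. Slc29a1, which did not differ past the threshold as deposited (0.05, 95% interval -0.08 to 0.18, adjusted p = 0.501), was then lower by log2 -0.34 (adjusted p = 9.67e-05). Rnaset2a, outside these counts, did not pass as deposited (log2 -0.99, adjusted p = 0.139, limma) and was -1.37 once centred (adjusted p = 0.0486). The filter admitted Rnaset2a through the groups compared here, so these values are a description.

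Other genes of the pathway gave context for these members. Their counts stand beside the same shares of all genes as above, 19.2% higher and 62.9% lower with R848 (43% and 34.6% after centring) and 22.2% higher and 46.7% lower with PNPi+dG/rG+polyU (33.2% and 33.2% after centring). With polyU those shares were 20.6% and 18.7%. In the list of nucleoside carriers and PNP, 3 of 6 genes were tested, and all 3 rose with polyU, PNPi+dG/rG+polyU and R848, also after centring. Slc28a2, a concentrative carrier that takes up purine nucleosides with sodium, had 18.1 and 19.3 CPM with vehicle, 123.4 and 118.7 in PNPi+dG/rG+polyU libraries and 97 and 101.3 with R848 (log2 2.70 and 2.41 over vehicle, adjusted p = 4.56e-14 and 7.88e-14). Pnp, the enzyme that ulodesine inhibits, had 46.3 and 47.8 CPM with vehicle, 79.5 and 82.6 with polyU, 134.8 and 136.8 in PNPi+dG/rG+polyU libraries, and 124.4 and 135.8 in R848 libraries. Both genes were higher in every library of the 3 groups than in vehicle. Pnp rose by 0.79, 1.53 and 1.47 (adjusted p = 1.44e-07, 6.12e-12 and 5.19e-12), and Pnp2, its neighbour copy, by 2.37, 3.76 and 3.32 from 0.505 and 0.393 CPM in vehicle. Pnp2 shares 28.5% of its 50-base words with Pnp, and Slc28a2 shares 35.4% with Gm14085, which had at most 0.455 CPM, so the copies of Pnp may share reads.

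In the list of other lysosomal nucleases, phosphatases and RNA channels, 7 of 9 genes were tested. Rnase6, a secreted and lysosomal RNase, fell by 3.53 with R848 and fell by 0.96 with PNPi+dG/rG+polyU, Rnase4 fell by 1.94 and fell by 0.44, and Dnase2a, the lysosomal DNase, fell by 1.52 and fell by 0.47. With R848 4 genes of the list fell (these 3 and Sidt2) and 1 rose (Acp2, 0.45), and with PNPi+dG/rG+polyU 5 fell (these 3, Sidt2 and Lamp2) and 2 rose (Acp2 and Acp5). After centring the counts were 3 lower and 4 higher with R848, and 3 lower and 2 higher with PNPi+dG/rG+polyU. The list's median log2 difference was -0.45 with R848, close to the -0.50 of all genes.

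Among the 9 endolysosomal proteases, which trim TLRs and digest cargo, 7 fell and 1 rose with R848 and 6 fell and 2 rose with PNPi+dG/rG+polyU, but the medians, -0.42 and -0.22, were near those of all genes (-0.50 and -0.22), and after centring 2 were lower and 6 higher with R848 and 4 lower and 4 higher with PNPi+dG/rG+polyU. The largest falls with R848 were Ctsk (-1.01), Ctsd (-0.78) and Lgmn (-0.61). Of the 18 genes for TLR loading and signalling, 7 rose and 8 fell with R848 and 7 rose and 7 fell with PNPi+dG/rG+polyU (12 higher and 6 lower, and 11 higher and 2 lower, after centring), beside 19.2% of all genes higher and 62.9% lower with R848 and 22.2% and 46.7% with PNPi+dG/rG+polyU. Tlr13, a receptor for bacterial ribosomal RNA, fell by 3.05 and fell by 2.06, and Cd14, a co-receptor, rose by 2.69 and 1.20. PNPi+dG/rG alone called 1 of these 18 genes, Tlr7, which was lower, beside 0.409% of all genes higher and 0.392% lower. After centring 2 of the 18 were lower and 0 higher, beside 0.801% and 0.301% of all genes. Of 5 further carriers of related families, 2 were tested, and Slc46a3 fell by 4.67 with R848 and fell by 1.48 with PNPi+dG/rG+polyU.

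The genes whose log2 CPM followed each member most closely over the 10 libraries, among the 8459 genes averaging 10 CPM or more, were found as a description. The libraries share their treatments, so high values come with any gene that follows the groups. Slc15a3 was nearest to Tma16 and complement gene C3 (Pearson r = 0.998 for both), and Slc29a3 to Lrp12 and Cipc (0.999). Slc29a2 was nearest to Usp30 (0.996) and Letm1 (0.995), Pld4 to Cd72 (0.996) and S100a4 (0.994), and Slc15a4 to Gm42047 and Akr1a1 (0.994). Unc93b1 was nearest to Rtraf and Tmsb4x (0.992), Pld3 to Myo9b and Actn1 (0.992), and Slc29a1 to Zmiz2 (0.984) and Card9 (0.979). The RNase T2 rows had lower values, 0.972 for Rnaset2a with Pdcd10 and 0.968 for Rnaset2b with Smpdl3b, and Olr1 (0.958) and Snx10 (0.955) came next.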

How the data were processed

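RNA-seq libraries were made by the authors with a stranded mRNA kit and sequenced as 50 bp single reads. According to the labels and the methods, bcl2fastq 2.19.1.403, STAR 2.27a and Partek Flow were used with GRCm38 and the Ensembl release 97 annotation, and the authors deposited normalized values in CPM with 0.0001 added to each. How reads matching several genes or either strand were counted is not given in the sources used here. CPM does not correct for strongly induced genes that take up a larger share of a library, nor for gene length. Library depth came from the step between low values below 3 CPM, all of which were whole multiples of that step within 0.05 reads.

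Log2 of the deposited values was fitted with limma 3.58.1 in R 4.3.3 (statmod 1.5.0), with a trend and robust eBayes, as group means of all 10 libraries, without a block for the replicate number. Groups of 2 libraries give an exact permutation test no chance of passing 0.05, so limma was used for single genes as well. The fit was tested on simulated data in which few genes changed, in both directions. That test does not cover a shift of the middle of the whole table as seen here. P-values measure the spread between the libraries of a group. Of genes with at least 50 reads in a pair of replicates, 15.8% to 26.3% had a chi-square statistic past its 5% limit, which sampling noise alone would pass in 5%. Gene positions and sequences came from GENCODE M21, the release before the authors' annotation, and RefSeq.

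The members and lists were chosen with earlier results of these data known. Tlr3 was named only after its values were seen. Named are all members, Tlr7, Tlr8, Tlr9, Pnp and Pnp2, genes of other lists in counts of 5 or fewer or among the 3 largest changes past the threshold, and the 2 genes most like each member. 5430427O19Rik, Irf5, Tmem132a, Gm43474, Gm17080 and Gm14085 were also named where a member's value turned on them, after their values were seen. So were the markers Mertk, Fcgr1, Lck, Lum, S100a9, Kdr, Vwf, Pecam1, Cdh5, Cd3e, Cd3d, S100a8 and Ly6g. Alternatives were pseudocounts of 0.1 and 1, other filters, centring, plain eBayes, fewer groups, a replicate block, both RNase T2 copies summed, and leaving out each library.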

Additional observations from a re-analysis of the deposited data

Results flagged for a closer look

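The effect of PNPi+dG/rG differed between macrophages with and without polyU for 5 members, by the test of the difference itself in limma, at a background of 11.8% of all genes higher and 38.9% lower. On the log2 scale it was larger with polyU by 1.00 for Slc15a3 (adjusted p = 3.72e-09). It was lower with polyU by -2.07 for Slc29a2 (adjusted p = 2.75e-05), -0.97 for Slc29a3 (adjusted p = 2.27e-07), -0.46 for Slc29a1 (adjusted p = 4.16e-04) and -0.34 for Pld3 (adjusted p = 4.19e-04). After centring, Slc29a1 (-0.17, adjusted p = 0.105) and Pld3 (-0.06, adjusted p = 0.52) no longer passed, and Unc93b1 did (0.30, adjusted p = 5.01e-04). All groups hold 2 libraries, too few to look for single libraries that stand apart.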

How the results depend on the processing

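Centring each library on its median was the choice that moved members most, and it turned the direction of 9 of 63 differences. After turning, 5 passed the test: Pld4 with PNPi+dG/rG+polyU against vehicle (0.17), Pld3 (0.18), Slc29a1 (0.27) and Unc93b1 (0.56) with R848 against vehicle, and Slc29a1 between PNPi+dG/rG+polyU and R848 (-0.34). The other 4 passed neither way: Slc29a2 between the same groups (-0.12), the interactions of Pld4 (0.12) and Slc15a4 (0.11), and Unc93b1 with PNPi+dG/rG (-0.02). Centring ended 8 calls and added 7. The other settings that kept all libraries reversed none. Leaving out 1 library at a time left a group with 1 library, which is assumed to vary like the others, so counts of members from those fits are not given. Without a filter on low values Rnaset2b was also called with R848, making 9 members with Rnaset2a included, beside 40.9% of all genes then tested. Deviations of same-numbered libraries correlated between -0.286 and 0.109 over 10 pairs of groups. The lowest values, -0.286 and -0.273, were those of PNPi+dG/rG with vehicle and with polyU. Whether libraries of different groups were paired in some other way cannot be told from these values. With a replicate block added, the only call of a member to change was the interaction of Pld4, which then passed (-0.16, adjusted p = 0.0445, limma). The interaction was called for 50.5% of all genes in that fit. Crossing the PNPi+dG/rG numbers in the block, a setting chosen after seeing the data, gave 1 called member for PNPi+dG/rG, Pld4, beside 1.17% of all genes. Planned tests on recovered read counts were left out, since the offset on the deposited CPM kept recovery from passing its check. With 3 reads at up to 0.212 CPM, depth limits both RNase T2 rows.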
